A study of Mus musculus with 3 samples.

Results

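The region described here is the sequence from the edge of the beta-globin viewpoint to 150 kb beyond it, on the side of higher coordinates of mouse chromosome 7, where gene order places the embryonic globin genes and the locus control region (LCR). Its members were chosen by position alone, as every listed DpnII fragment with a midpoint from 110977139 to 111126215 in the genome build mm9, with or without reads. They are 312 of the 48123 fragments listed for chromosome 7. The study applied next-generation Capture-C to erythroid cells grown from mouse fetal livers taken at embryonic day 12.5. In this assay crosslinked chromatin is cut with DpnII and religated, and the ligation products of a chosen fragment are captured with oligonucleotides and sequenced, so that a read counts 1 contact of the viewpoint. The 3 samples form 1 group, cells of mixed strain with a homozygous deletion of the beta-globin enhancers HS2 and HS3, expanded for 6 days, selected for CD117 and differentiated for 24 h to the late erythroid stage. No control genotype was analysed here, and every comparison is between positions in the deletion profile. The 3 count columns carry no sample names of their own and are named here by their order in the table. The labels speak of cells from individual fetal livers but do not tie a sample to an animal, and part of the differences between columns may be technical.

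In the mouse beta-globin locus the embryonic genes lie between the adult genes and the LCR. Hbb-y and Hbb-bh1 are transcribed in the embryonic erythroid cells of the yolk sac, and the adult genes in the definitive erythroid cells of the fetal liver and bone marrow. The LCR, a cluster of DNase-hypersensitive enhancers beyond Hbb-y, is known to come close to the active globin promoters in erythroid cells. In the RefSeq order of GRCm38 the adult genes Hbb-bt and Hbb-bs are followed by Hbb-bh3, Hbb-bh2, Hbb-bh1 and Hbb-y, and then by the olfactory receptor genes Olfr66, Olfr64 and Olfr65, which encode odorant receptors. No gene table in mm9 was used, so the members are given by position and not by gene.

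DpnII cuts at GATC, and the spacing of these letters sets which sequence is counted together. The 250 bases before the start of 4 genes in this order are shown for that reason, from RefSeq on GRCm38.p6, 5′ to 3′ on the minus strand, with each GATC in capitals. GATC reads the same on both strands, and 41.9% of the 32851 promoters in the table hold it within these 250 bases. Of 21 genes from Hbb-bs onward in the order, 11 had a promoter in the table. The positions in GRCm38.p6 are chr7:103827929-103828178 for Hbb-bs, chr7:103853208-103853457 for Hbb-y, chr7:103882242-103882491 for Olfr66 and chr7:103894472-103894721 for Olfr64, and they cannot be set beside the mm9 positions used below.
Hbb-bs: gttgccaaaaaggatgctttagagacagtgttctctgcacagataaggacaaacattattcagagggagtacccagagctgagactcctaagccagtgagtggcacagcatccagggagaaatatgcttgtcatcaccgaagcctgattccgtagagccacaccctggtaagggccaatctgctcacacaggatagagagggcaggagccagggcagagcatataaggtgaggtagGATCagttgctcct
Hbb-y: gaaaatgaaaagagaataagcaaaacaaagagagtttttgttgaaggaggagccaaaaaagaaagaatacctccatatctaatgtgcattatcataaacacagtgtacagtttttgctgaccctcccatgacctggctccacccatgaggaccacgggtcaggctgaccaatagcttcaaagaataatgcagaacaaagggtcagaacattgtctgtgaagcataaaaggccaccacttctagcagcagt
Olfr66: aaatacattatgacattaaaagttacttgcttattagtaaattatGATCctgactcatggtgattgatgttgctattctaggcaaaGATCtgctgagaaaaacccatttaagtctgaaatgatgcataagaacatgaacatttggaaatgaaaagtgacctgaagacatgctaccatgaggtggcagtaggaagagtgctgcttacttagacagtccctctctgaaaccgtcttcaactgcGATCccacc
Olfr64: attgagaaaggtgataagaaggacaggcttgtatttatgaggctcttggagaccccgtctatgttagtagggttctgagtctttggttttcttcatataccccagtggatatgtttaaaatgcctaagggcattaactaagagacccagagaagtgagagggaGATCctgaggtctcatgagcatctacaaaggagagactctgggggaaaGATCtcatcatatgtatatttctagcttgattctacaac
In the adult gene Hbb-bs the site begins 14 bases before the gene's start, and in the embryonic gene Hbb-y these 250 bases hold none. In Olfr66, the gene after Hbb-y in this order, 3 sites enclose pieces of 155 and 41 bp. Adjoining fragments of exactly 155 and 41 bp, in that order, occur once among the 18993 adjoining pairs of the list, at 111030763 to 111030958, which is 54.5 to 54.7 kb from the viewpoint. The piece of 48 bp between the sites of Olfr64 has the length of 51 listed fragments, of which 1 is a member, 66.8 kb from the viewpoint. The matches lie in the order of the genes, but a length that 51 listed fragments share cannot identify a fragment. A match in spacing is a description, and it does not by itself place a gene in mm9.

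The members held 11907, 10459 and 8789 of the 49433, 49247 and 37382 cis reads of the 3 columns. Their share of the cis reads was 22.9% ± 1.51 (SD, n = 3), from 0.648% of the listed fragments. By column it was 24.1% (exact 95% binomial limits 23.7 and 24.5), 21.2% (20.9 and 21.6) and 23.5% (23.1 and 23.9). The second column lay below the others by more than counting error. Such intervals cover counting error only, since PCR duplicates may make reads dependent. The members ranged from 16 to 2621 bp with a median of 338 bp, and covered 93.4% of their span. Their median was 32.0 reads over the 3 columns together, against 1.00 over all listed fragments. Of the 110 fragments of the list with at least 100 reads, 76 were members. All listed fragments include those far from the viewpoint. The lower-coordinate side held 15.8% ± 1.74 of the cis reads over the same distances.

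Contacts were concentrated on a small part of the members. Ranked by reads, 25 fragments (8.01% of the members) held 50% of the member reads, with 24, 27 and 25 in the single columns, and the 10 fragments with the most reads held 29.2%. The 76 members with at least 100 reads held 80.7%. On the lower-coordinate side, over the same distances, 8 of 330 fragments held 50% of the reads.

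**Figure D1:**
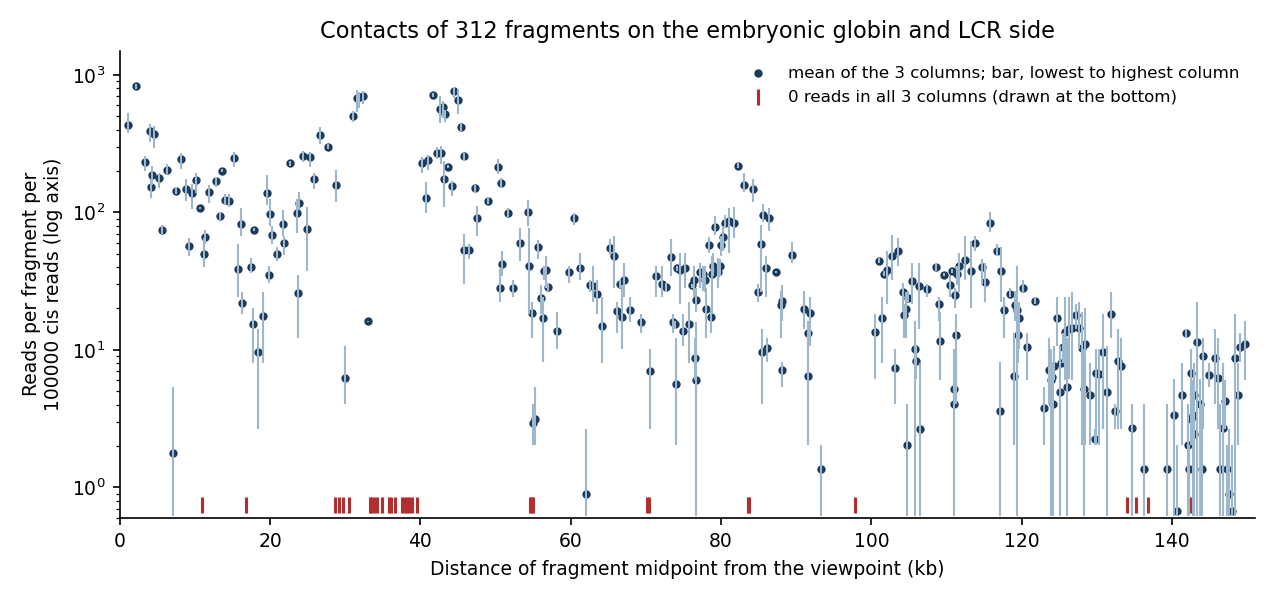
Reads per fragment per 100000 cis reads (log axis) against the distance of the fragment midpoint from the viewpoint in kb, for the 312 members. Points are means of the 3 columns, bars run from the lowest to the highest column, and red ticks mark the 33 members with 0 reads in all 3 columns; high fragments lie on both sides of the group of ticks at 33.2 to 39.9 kb and again around 82.2 kb.

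Read density did not fall evenly with distance. In windows of 10 kb, the density (reads per kb per 100000 cis reads, mean ± SD, n = 3) was 417 ± 28.3 at 0 to 10 kb, 197 ± 15.6 at 10 to 20 kb, 242 ± 12.7 at 20 to 30 kb and 259 ± 33.5 at 30 to 40 kb. It was highest at 40 to 50 kb, with 664 ± 62.9, above the window next to the viewpoint in every column. This window, just beyond the stretch without reads, held 28.9% ± 0.87 of the member reads. From 40 to 50 kb to the next window the density dropped by 6.30-fold (6.12 to 6.51 over the columns), and it reached 46.8 ± 0.44 at 60 to 70 kb.

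A second rise lay farther out. The density was 86.2 ± 0.70 at 70 to 80 kb and 137 ± 15.4 at 80 to 90 kb, so that the latter was 1.59-fold (1.39 to 1.71) its nearer neighbour and exceeded the window at 50 to 60 kb (105 ± 9.41) in every column. At 90 to 100 kb it was 5.92 ± 0.58, that is 23.2-fold lower (22.2 to 24.6). In that window 6 fragments were listed over 4.31 kb, and unlisted stretches of 3009 and 2437 bp lay in it or reached across its outer edge. Per kb of listed sequence the density there was 13.7 ± 1.36, against 130 ± 14.6 at 80 to 90 kb. The outermost rise, at 100 to 120 kb, had 56.4 ± 3.59 and 70.5 ± 5.51, followed by 25.7 ± 4.40, 6.45 ± 2.54 and 13.9 ± 3.12 in the last 3 windows. Ordered by density, 2 of the 14 neighbouring pairs of windows overlapped between columns, namely 30 to 40 kb with 20 to 30 kb and 130 to 140 kb with 90 to 100 kb.

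Within the member reads of a column the high windows took similar shares. The window at 0 to 10 kb held 16.4%, 16.4% and 16.7% of a column's member reads, and the window at 40 to 50 kb held 29.6%, 27.9% and 29.2%. The shares differed more between columns where reads were few, with 0.227%, 0.440% and 0.193% at 130 to 140 kb.

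Next to the viewpoint, the first member, 110977139 to 110977621, had 186, 189 and 198 reads, and the second, 110977622 to 110979067, had 428, 402 and 296. The second is the member with the most reads, 1126 over 1446 bp. The fragments just outside the region across the unlisted viewpoint stretch of 1847 bp had 2188 and 1635 reads, and those just beyond the outer limit had 12 and 3, against 14 and 15 just inside it. Within the first 10 kb a fragment of 451 bp at 110983086, among neighbours of 278 and 195 reads, had 0, 0 and 2 reads. Between 10 and 20 kb no fragment had more than 339 reads, at 110991221 to 110991652 with 135, 106 and 98.

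The sequence between 20 and 33 kb lies on the viewpoint side of the stretch without reads. At 26.6 kb, 111002452 to 111003149 had 179, 207 and 118 reads. From 111004700 to 111007025, 4 of 6 fragments had 0 reads in every column, and the others had 210 and 8 reads. The 210 reads fell on a fragment of 139 bp (75, 59 and 76), with empty fragments on both sides. Directly beyond these 6 came the 4 fragments of 111007026 to 111009073, the most contacted between 10 kb and the long stretch without reads. They had 272, 223 and 187 reads at 31.1 kb, 386, 266 and 272 at 31.5 kb, 373, 284 and 275 at 31.8 kb and 356, 305 and 285 at 32.4 kb. The last of them, of 932 bp, adjoined a fragment of 304 bp with 8, 8 and 6 reads.

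The members from 111009378 to 111016071, 33.2 to 39.9 kb away, were 14 adjoining fragments of 6694 bp with 0 reads in all 3 columns. A count of 0 allows up to 0.00607%, 0.00609% and 0.00803% of the reads of the columns. The distance curve used below predicted 2301 reads there and at least 649 in each column. That curve cannot rise with distance and was level from 7.1 kb to the end of this stretch, so its predictions there varied with length only. The stretch was the only run of at least 5 adjoining empty members. The LCR lies on this side of the viewpoint, and the labels give a deletion of HS2 and HS3, but neither was placed in mm9 here. Whether the empty stretch is that deletion was not tested, since no library without the deletion was analysed here.

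Beyond it, 111016072 to 111022003 held most of the densest window. The fragment with the most reads there, 111020513 to 111020977 at 44.5 kb, had 402, 335 and 301 reads. Its outer neighbour, 111020978 to 111021351, had 390, 257 and 251. At 41.6 kb, 111017385 to 111018296 had 354, 343 and 277. Contact varied sharply between neighbours even within this stretch: 111018635 to 111018894 had 348, 222 and 203 reads in 260 bp, while the 860 bp from 111019507 had 104, 104 and 83. The shortest of the highest members, 81 bp at 111019426, had 269, 225 and 208 reads. Counts dipped 46.5 kb away, where 1177 bp from 111022103 had 29, 28 and 17 reads next to 75 bp with 116, 134 and 97. Farther out some were higher again. At 47.3 kb, 111023280 to 111023653 had 77, 78 and 52 reads, and at 50.3 kb, 111026343 to 111026767 had 121, 93 and 79.

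**Figure D2:**
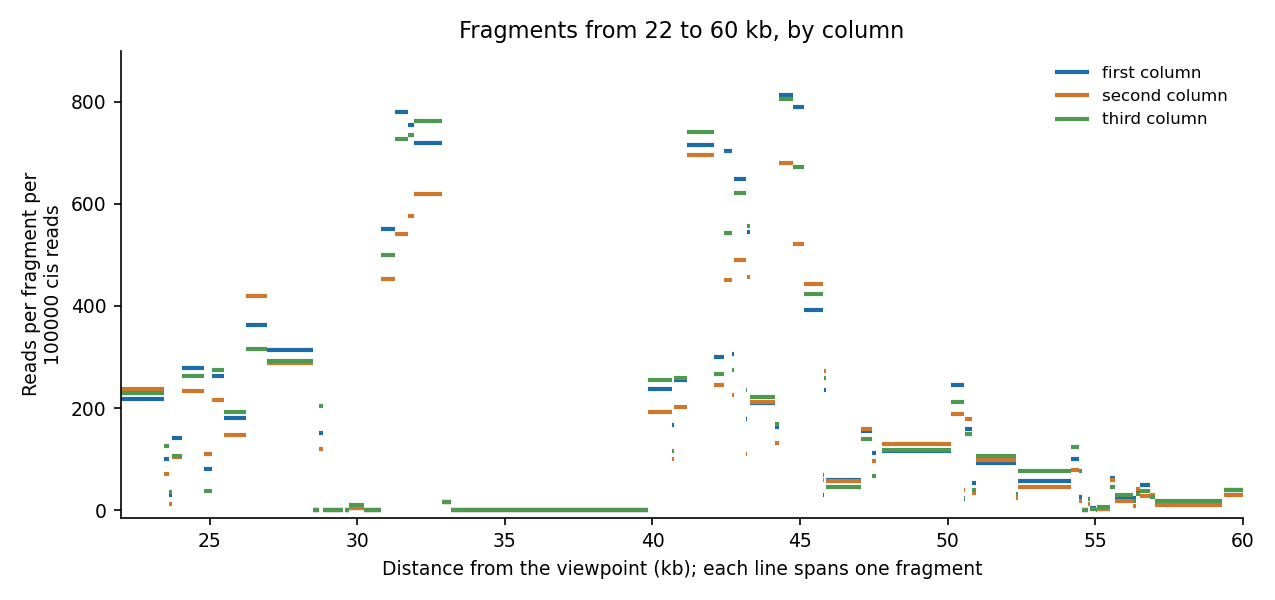
Reads per fragment per 100000 cis reads against distance from the viewpoint in kb, from 22 to 60 kb, with 1 horizontal line per fragment and column. The stretch without reads at 33.2 to 39.9 kb separates the 4 high fragments at 31.1 to 32.4 kb from the high fragments at 40.3 to 45.8 kb.

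The fragments that match the spacing of sites before Olfr66, of 155 and 41 bp, had 0 reads in all columns, where distance predicted 23.9. Their neighbours were not empty, with 13, 9 and 29 reads on the nearer and 11, 6 and 8 on the outer side. The member of 48 bp, the length of the piece before Olfr64, had 5, 6 and 11 reads. Whether reads of olfactory receptor genes, which have many similar copies, can be mapped uniquely there was not tested.

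In the second rise the most contacted fragment was 111058112 to 111058703, 82.2 kb away, with 106, 104 and 85 reads. Its inner neighbour, of 405 bp, had 54, 32 and 29 reads, and its outer neighbour, of 1013 bp, had 95, 70 and 53. A pair of fragments with 0 reads, 347 bp from 111059717, lay between that neighbour and 111060064, which had 86, 59 and 56. Beyond 90 kb the longest member, 2621 bp at 111068240, had 1, 1 and 0 reads where distance predicted 135. In the outermost rise the highest was 111091380 to 111092624, 116 kb away, with 39, 50 and 27 reads. In the last 20 kb the most reads on any member were 25 and 18 per 10 kb window, too few to order the columns.

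Of the 312 members, 33 (10.6%) had 0 reads in all 3 columns, against 21.3% of all listed fragments and 20.9% of the 330 on the lower-coordinate side at the same distances. Outside the long run they were 19 fragments, with a median of 194 bp, in 13 single fragments and 3 pairs. The longest of them were 893 bp at 110992546, 692 bp at 111005045 and 578 bp at 111006448. The level part of the curve predicted 307, 238 and 199 reads for them.

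Fragment length moved with the counts. Outside the long run, members under 100 bp (n = 54) had 59.4 reads per fragment and a density of 763 ± 82.3, and members of at least 600 bp (n = 70) had 152.6 reads per fragment and a density of 104 ± 3.03. Over these 298 members the Spearman correlation of length was 0.30 with reads and -0.28 with reads per kb, as a description across fragments of the same libraries. A high density per kb of a short fragment, such as 6409 ± 670 for the 81 bp at 111019426, is therefore not comparable with that of a long one.

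Each member was also set against the reads that its distance and length predicted, from a monotone curve over both sides that included the members. The curve was level from 7.1 to 39.9 kb, so predictions there varied with length only. Of the 398 fragments within 1 Mb with at least 5 predicted reads in every column, 57 (14.3%) were at least 2-fold over in every column and 150 (37.7%) at least 2-fold under. Of the 172 members among them, 45 were over and 42 under; no test was made, since fragments of 1 library are not replicates. Their median ratio was 1.20 (1 is the prediction), against 0.58 over the 398. On the lower side, 12 of 197 were over and 93 under. The other 140 members had too few predicted reads.

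The 45 lay in separate stretches. At 40 to 50 kb 14 of 18 members were over, and at 80 to 90 kb, 111058112 to 111058703 was at 7.43 ± 0.21 times its prediction (SD, n = 3). The 4 fragments before the empty run together held 4.95 ± 0.24 times, and 7 adjoining fragments beyond it, from 111016872 to 111019396, held 4.89 ± 0.25 times. The highest ratio, 31.8 ± 1.52, belonged to the 81 bp at 111019426, followed by 16.2 ± 1.36 for the 79 bp at 111018895. The ratio moved with length. Over the members outside the long empty run it was 6.70 under 100 bp, 2.71 from there to 300 bp, 1.78 to 600 bp and 0.74 for longer ones. These classes include members with too few predicted reads. Of the 3206 reads of members under 100 bp, 702 and 365 fell on the 81 bp and 79 bp fragments above, at 43.3 and 42.7 kb. Length and position were not separated, and ratios of short and long fragments are therefore not comparable. The highest among fragments over 200 bp was 12.7 ± 0.77, for the 213 bp at 111007929 on the viewpoint side of the empty run. Farther out, 111091380 to 111093262 held 3.23 ± 0.38 times. Near the viewpoint the member with the most reads was under its prediction, at 0.38 ± 0.054. Of the 42 members under, 19 had 0 reads. The window at 30 to 40 kb, which holds the long empty run, had 13 of the 42. When the prediction ignored length, 41 of 204 members were over and 44 of all 434 fragments.

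**Figure D3:**
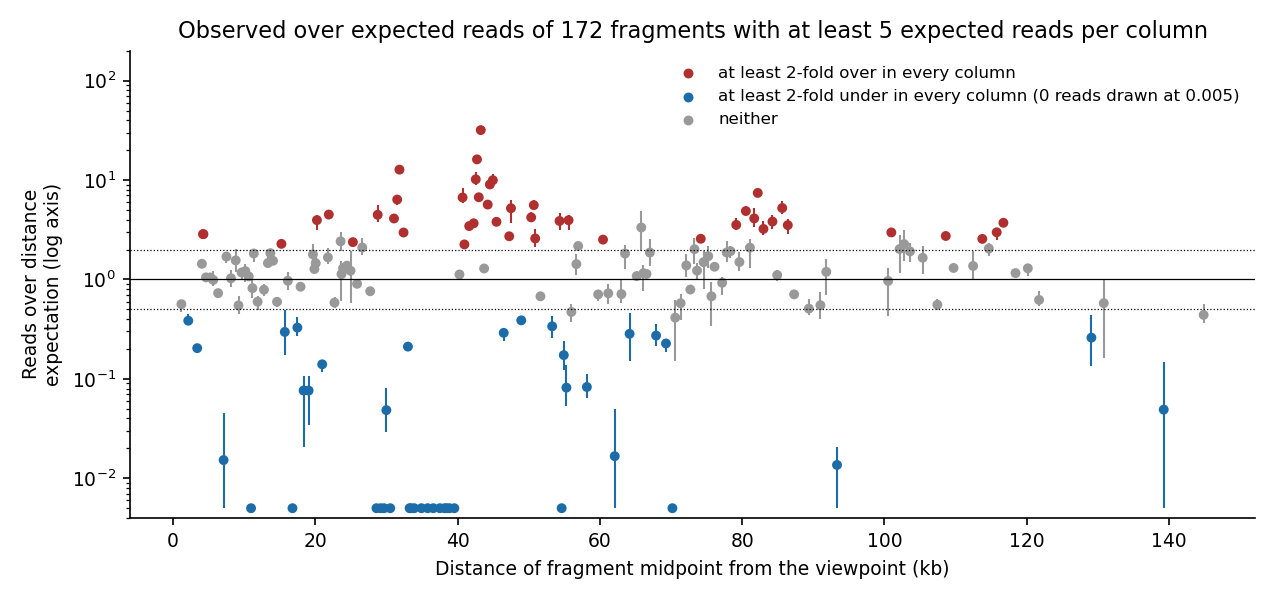
Observed over predicted reads (log axis) against distance from the viewpoint in kb, for the 172 members with at least 5 predicted reads in every column. Points are means and bars the range of the 3 columns, dotted lines mark 2-fold; the 45 red fragments were at least 2-fold over in every column, with 14 of them at 40 to 50 kb, and the 42 blue fragments were at least 2-fold under.

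The comparison with the other side of the viewpoint depended on the distances taken. Over the whole range to 150 kb this side held 1.46-fold the reads of the lower-coordinate side (1.42-fold, 1.54-fold and 1.42-fold in the columns), a log2 ratio of 0.54 ± 0.069 (SD, n = 3). With 3 columns a two-sided exact permutation test by sign flips cannot go below p = 0.25, which it gave. Without 20 to 50 kb on both sides the log2 ratio was -0.13 ± 0.15, with this side lower in the first and the third column (0.86-fold in both) and 1.03-fold in the second (p = 0.5 by the exact sign-flip test). Without the fragments within 5 kb, where the lower side is higher, the log2 ratio was 1.45 ± 0.015, and without both these and 20 to 50 kb it was 1.08 ± 0.12. From 50 to 150 kb alone this side held 3.46-fold the reads (3.66-fold, 3.38-fold and 3.36-fold).

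By window, this side was higher in every column in 12 of 15 windows and lower in every column in 3. The lower side exceeded it by 2.20-fold at 0 to 10 kb, by 1.27-fold at 10 to 20 kb and by 2.73-fold at 90 to 100 kb, the window with the unlisted stretches. Per kb of listed sequence the 90 to 100 kb windows were at 13.7 ± 1.36 on this side and 16.5 ± 0.64 on the lower side. The lower window at 10 to 20 kb also lists only 7.575 kb. On the listed scale the lower side exceeded this one by 2.32-fold, 1.68-fold and 1.20-fold in these windows, nearest first. The folds that follow are per kb of window. The excess of this side was 13.5-fold (12.0 to 14.7) at 40 to 50 kb, 9.34-fold (7.87 to 11.9) at 80 to 90 kb and 6.83-fold (5.37 to 8.12) at 110 to 120 kb. At 140 to 150 kb it was 1.89-fold (1.22 to 2.39), and in the next window outward 1.09-fold. Distances are in reference coordinates, so windows beyond the empty run are paired by distances that count its 6694 bp. With that run taken out of the distances, the log2 ratio to 150 kb was 0.55 ± 0.071. The window folds were not recomputed in that way. On the lower side the density was 127 ± 2.32 at 30 to 40 kb and 49.3 ± 2.63 at 40 to 50 kb. The deposited profile is named as combined without saying of what. A long unlisted stretch 13.9 kb away on the lower side may be a further viewpoint, and with distances counted from it the log2 ratio was 2.15.

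**Figure D4:**
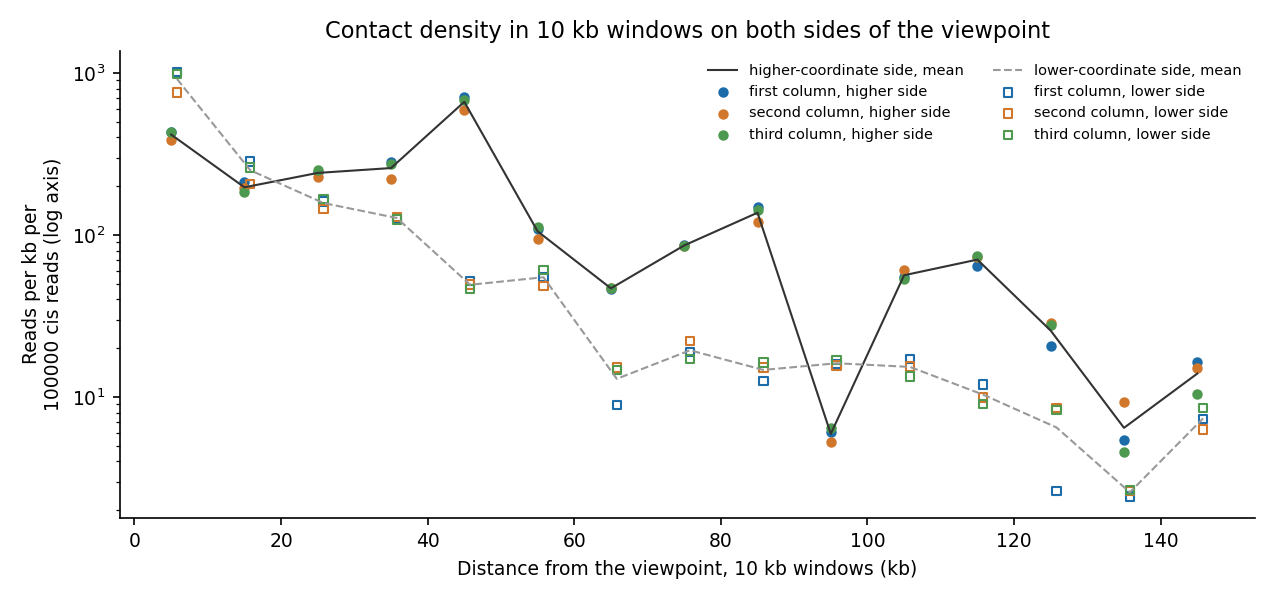
Reads per kb per 100000 cis reads (log axis) in 10 kb windows against distance from the viewpoint in kb, for the embryonic globin and LCR side (filled circles, solid line for the mean) and the lower-coordinate side (open squares, dashed line), with 1 colour per column. The solid line rises at 40 to 50 kb, 80 to 90 kb and 110 to 120 kb, and lies under the dashed line at 0 to 20 kb and 90 to 100 kb.

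The columns agreed in the ranking of the members, with Spearman correlations of 0.96, 0.94 and 0.94 across the 312 fragments, which are not independent replicates. The spread between them was near counting noise for members of 30 to 99 reads (median coefficient of variation 20.6%, with 24.5% given by counting at the median count) and above it for the 28 members with at least 300 reads (12.9% against 7.61%). By the exact multinomial test of a fragment's 3 counts against the cis totals, with Benjamini-Hochberg adjustment over all fragments of at least 10 reads, 26 of 1003 fragments (2.59%) differed between columns. Of the 227 members tested, 11 did. The test covers counting error only and takes reads as independent. Over the 161 members with at least 30 reads the chi-square per degree of freedom was 1.89, where counting alone gives a value near 1. Set against each column's member reads instead of its cis reads, it was 1.56. The power of the test rises with reads: of fragments with at least 100 reads, 8 of 76 members and 8 of 34 others were called.

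The second column was the lowest, per cis read, in 8 of the 11 called members, and it was below the first in 22 of the 28 members with at least 300 reads. The smallest adjusted p of the exact multinomial test, 0.000129, belonged to 111018635 to 111018894, at 704, 451 and 543 reads per 100000. By the same exact test 111020978 to 111021351 (adjusted p = 0.000184) was at 789, 522 and 671, and 111007508 to 111007928 (exact test, adjusted p = 0.000968) was at 781, 540 and 728. These 3 lie in the high stretches on both sides of the empty run. The others of the 5 smallest were 111019397 to 111019425, with 88, 54 and 88 reads, and 111095444 to 111095629, 119 kb away, with 20, 9 and 0 reads. Scaled to the reads within 150 kb on both sides, 4 members were called, 12 of 1003 (1.2%) in all, and 3 of the 4 were among the 11. Without the second column 1 of 539 fragments tested was called, a member.

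**Figure D5:**
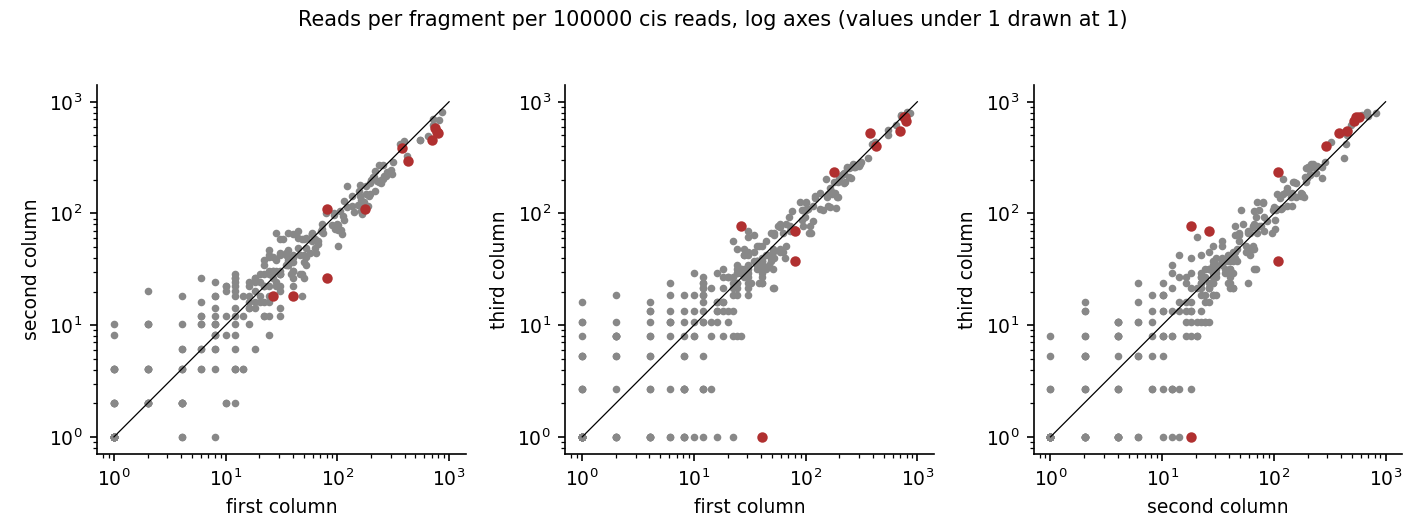
Reads per fragment per 100000 cis reads (log axes) of the 312 members, for each pair of columns, with values under 1 drawn at 1 and the line of equality. Red points are the 11 members that differed between columns at an adjusted p under 0.05 by the exact multinomial test; the second column is the lowest in 8 of them.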

How the data were processed

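The authors deposited read counts, not normalized, for the DpnII fragments of chromosome 7 that contact the beta-globin viewpoint, 3 columns for the 3 samples; the header has 1 cell, so columns carry no replicate number. Per the submitters' processing notes, Trim Galore, Bowtie2 and mm9 were used; junction counting and the choice of listed fragments are not stated in the sources used here. Unlisted sequence was treated as having no reads in the windows of 10 kb. The viewpoint is the centre of an unlisted stretch, 150 kb before the region's outer limit. Predicted reads came from isotonic regression (scikit-learn 1.9.0) of reads per listed kb on log distance, 10 bins per decade. Tests used scipy 1.17.1 and numpy 2.4.6 in Python 3.11.15, and the exact multinomial test and the curve were tested on simulated data. The members and lists were chosen with earlier results of these data known. Fragments were named by rule: the 10 with the most reads, the highest of each 10 kb window, empty runs of at least 5 fragments, the 5 smallest p between columns and the 10 highest ratios past 2-fold; others were named after their values were seen, and the match of promoter spacing was chosen then. Alternatives covered each column left out, short, near and capped fragments, scaling, window size and the distance curve.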

Additional observations from a re-analysis of the deposited data

How the results depend on the processing

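No paired analysis between groups was possible because the series has 1 group. The side ratio set both sides of the same column against each other. Leaving out 1 column gave a share of cis reads of 22.4% to 23.8%, a log2 side ratio of 0.50 to 0.56, 24 to 26 fragments for 50% of the reads, 36 to 37 empty members, a density of 639 to 699 in the densest window, 1 to 7 members that differ between columns, 47 to 51 members over and 43 to 45 under their prediction. Among all fragments, 9 of 562 differed without the first column, 1 of 539 without the second and 17 of 653 without the third, and 61 to 66 were over and 160 to 194 under among 398 to 472 tested. The share was 49.2% with reads within 1 Mb as denominator. The densest window was at 524 without fragments under 100 bp, at 552 with capped counts and at 1099 in windows of 5 kb, and lay at 40 to 50 kb, or 40 to 45 kb, in all of these. With column totals within 150 kb, 4 members differed between columns, and 12 of all 1003 fragments. At 3-fold 29 of 172 members and 35 of all 398 fragments were over, and with at least 2 predicted reads 68 of 234 and 83 of 898. The log2 side ratio turned to -0.13 without 20 to 50 kb, an alternative chosen after seeing the data, as were 1.08 beyond 5 kb without that stretch and 1.79 from 50 to 150 kb. Its other values were positive. Depth limits the outer part, where 60 of the 68 members beyond 120 kb had under 10 reads in every column.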
